A study of Homo sapiens with 12 samples.

Results

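The 10 genes described here write, maintain and erase DNA methylation: DNMT1, DNMT3A, DNMT3B, DNMT3L, UHRF1 and UHRF2 on the writing side, and TET1, TET2, TET3 and TDG on the erasing side. They were chosen by name and function from 18417 genes measured by a probe set that carries a single gene symbol. All 10 had such a probe set, and where a gene had several the one with the highest mean was read. Values are deposited log2 expression values. RNA came from the 1833 subline of MDA-MB-231, an established human breast cancer line selected for spread to bone. Cells labelled shHMGA2 (3 arrays) carried a lentiviral shRNA against HMGA2, a chromatin protein that bends DNA, in the pLKO.1 vector and were kept in puromycin. Cells labelled Tet1 carried an inducible Flag-tagged Tet1, and cells labelled HOXA9 an inducible HOXA9, each under the TRE3G promoter. Both lines also carried the Tet-On 3G regulator, had been selected with puromycin and G418, and grew in serum approved for tetracycline systems. Each of these 2 lines had 2 independent arrays. Control cells (3 arrays) were of the same subline, and the labels do not say what vector, selection or serum they had. For the Tet1 and HOXA9 arrays the source name gives another subline number, 1834. The labels do not say whether inducer was added, and they call the arrays biological replicates without naming separate cultures or clones.

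DNA methyltransferases add a methyl group to cytosine, mostly in CpG dinucleotides. DNMT3A and DNMT3B set new marks with DNMT3L as a partner without catalytic activity, while UHRF1 recognises hemimethylated DNA after replication and brings DNMT1 to it. TET enzymes oxidise methylcytosine in steps, and the thymine DNA glycosylase TDG cuts out the later oxidation products so that repair can restore plain cytosine. TET1 is low in many breast tumours, and the series title places it in a pathway between HMGA2 and HOXA9.

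The arrays fell into pairs of groups on different scales. The median array value was 7.26 for shHMGA2, 7.69 for Tet1, 7.68 for HOXA9 and 7.23 for control, and the mean lower quartile was 5.75, 6.24, 6.24 and 5.75. The sources used here do not say if RMA was run once over both sets. A quantile normalization gives arrays a common distribution, which these medians and quartiles do not show across the sets. Each group lies in 1 set, so in any comparison across the sets the construct and the set of arrays cannot be told apart. The 2 further deposited columns, replicate 3 of Tet1 and of HOXA9, were the average of replicates 1 and 2 at each of 33297 probe sets (to within 1e-06) and were left out. The targeted HMGA2 could be read only from a probe set shared with ELAC2, whose mean was 8.81 in shHMGA2, 10.42 in Tet1-labelled arrays, 10.41 in HOXA9 and 9.56 in control. HOXA9 had no probe set of its own, so the HOXA9 label has no transcript check here. Of 9 basal markers of MDA-MB-231, 8 were measured and all lay above the 30th percentile of all values (6.22) in each group. Without detection calls, a level below that percentile is not known to lie above background. The luminal markers PGR and CDH1 were below it in each group.

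TET1, which starts the oxidation of methylcytosine, was higher in shHMGA2 cells than in each other group. Its values were 8.72, 8.92 and 9.29 in shHMGA2, 7.16 and 6.98 in Tet1-labelled arrays, 7.20 and 7.40 in HOXA9, and 6.59, 6.45 and 6.66 in control. The shHMGA2 arrays stood above every other array, the control arrays below every other, and the Tet1 and HOXA9 arrays between them. TET1 averaged 8.97 ± 0.29 in shHMGA2 and 6.56 ± 0.10 in control (SD, n = 3 each). The difference was 2.41 on the log2 scale (SE 0.12, 95% interval 2.14 to 2.68), a 5.31-fold higher level (limma, adjusted p = 1.3e-07). TET1 was also 3.74-fold higher in shHMGA2 than in Tet1-labelled arrays and 3.19-fold higher than in HOXA9 (limma, adjusted p = 1.7e-07 and 5.1e-07). In bulk RNA, more cells that express a gene and more RNA per cell cannot be told apart, nor can fewer cells and less RNA.

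**Figure D1:**
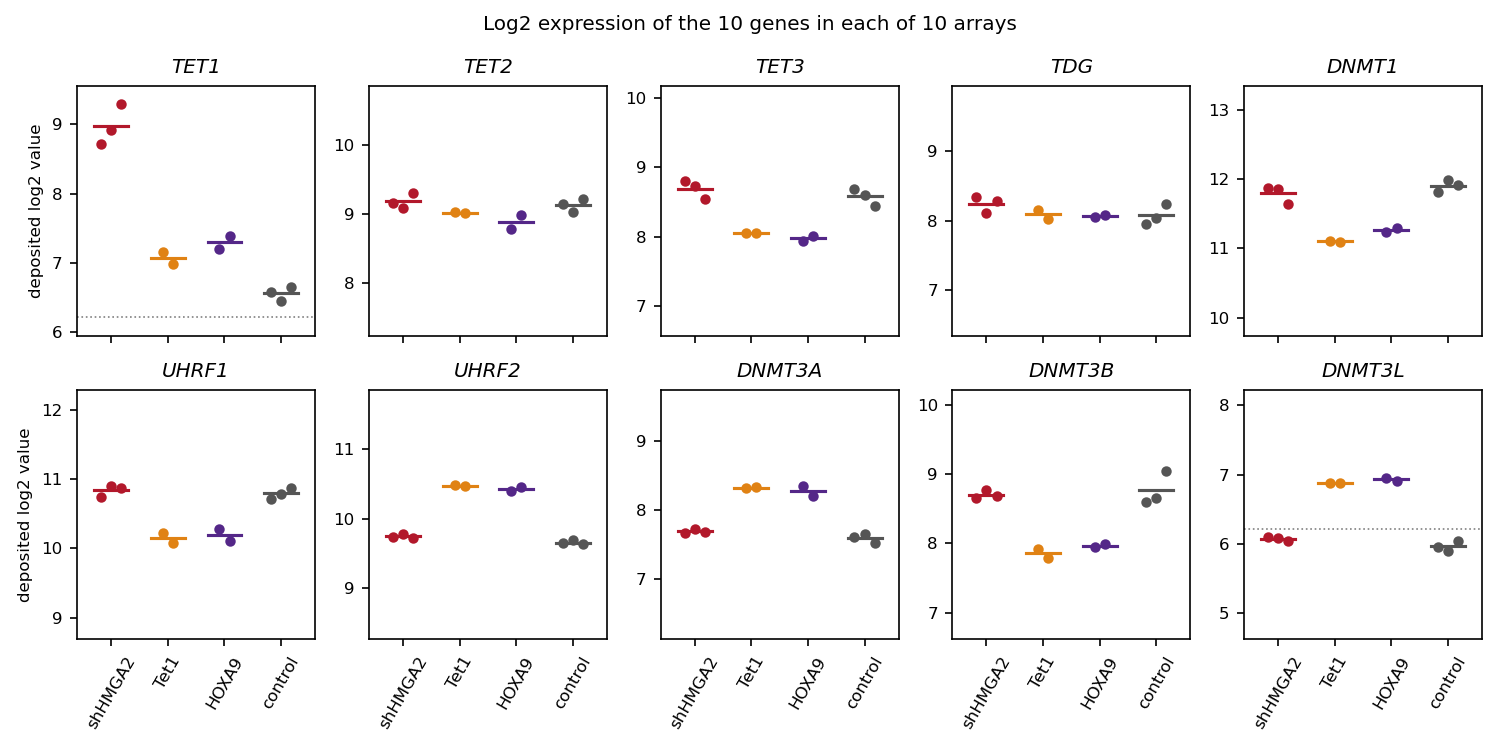
Deposited log2 value of each gene in each of 10 arrays (points; the bar is the group mean), by group on the x axis; every panel spans the same log2 range. TET1 is higher in the shHMGA2 arrays than elsewhere, and 7 of the other genes set the Tet1 and HOXA9 arrays apart from the others; the dotted line in the TET1 and DNMT3L panels is the 30th percentile of all values, 6.22.

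The transcript that checks the Tet1 label, TET1, was not higher in the arrays labelled Tet1 than in those labelled HOXA9. It was 7.07 ± 0.13 in Tet1-labelled arrays and 7.30 ± 0.14 in HOXA9 (SD, n = 2 each), so the arrays without a Tet1 construct had the higher mean. The difference was -0.23 on the log2 scale (95% interval -0.56 to 0.10; limma, adjusted p = 0.69). Whether the probe set reads the introduced Tet1 is not known, and the labels do not give its species or length. Against control, TET1 was 0.50 higher in Tet1-labelled arrays and 0.73 higher in HOXA9 on the log2 scale (limma, adjusted p = 0.0052 and 0.00042). The call in Tet1-labelled arrays was lost without Tet1 replicate 1, at 0.41 (limma, adjusted p = 0.061). Both calls depended on the scale of the arrays. After 1 quantile normalization over all arrays the difference was -0.06 in Tet1-labelled arrays and 0.20 in HOXA9 (limma, adjusted p = 0.74 and 0.24), and after shifting arrays to equal medians it was 0.04 and 0.28 (limma, adjusted p = 0.8 and 0.079). The shHMGA2 difference was 2.20 and 2.38 under the same scalings, and both passed the test.

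Some markers of other cells were higher in shHMGA2, as TET1 was. Of 11 measured genes that mark the HEK293 human kidney line or lie in the CDKN2A and MTAP stretch lost in MDA-MB-231, 7 were higher and 0 lower in shHMGA2 than in control. The list was chosen with earlier results of these data known, so its count is a description only. Among all genes 13.6% were called higher and 12.6% lower in this comparison. LHX1, PAX2, CDH6 and TFAP2B of the list were not called, with changes of 0.10, -0.09, -0.12 and -0.11. HOXD10, a homeobox gene, was 4.47 higher on the log2 scale and CDKN2A, which encodes cell cycle inhibitors, 2.48 higher (limma, adjusted p = 4.8e-10 and 3.6e-07). HOXD10 in control lay below the 30th percentile, so its level there is not known to be above background and its fold is that of the measured values. The summed linear signal of the 11 genes ranged over 3666 to 4910 in shHMGA2, 1533 to 1575 in Tet1-labelled arrays, 1420 to 1559 in HOXA9 and 1249 to 1355 in control. CDH6 and TFAP2B of that list were below the 30th percentile in shHMGA2. LIN28B, an RNA-binding protein of stem cells, had values of 7.69, 7.61 and 8.77 in shHMGA2 and 4.84, 4.89 and 4.92 in control, a difference of 3.14 in measured values with no overlap (limma, adjusted p = 2.2e-06). Its control level also lay below the 30th percentile. Of 7 measured pluripotent cell markers, LIN28B and SOX2 were higher in shHMGA2 and 0 lower, and DPPA4, PRDM14 and ZFP42 were below the 30th percentile there. Of 9 luminal markers 0 were higher and 2 lower, EPCAM at -0.49 and KRT8 at -0.21 (limma, adjusted p = 0.0045 and 0.046).

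Of the 8 measured basal markers, 0 were higher and 6 lower in shHMGA2 than in control, beside 13.6% and 12.6% of all genes. EGFR, a growth factor receptor, changed by -0.45 and AXL, also a receptor tyrosine kinase, changed by -0.40 (limma, adjusted p = 0.002 and 0.007). Against control EGFR also changed by -0.76 in Tet1-labelled arrays and -0.66 in HOXA9, and AXL by -0.33 and -0.28. Of the 8 markers, 5 were higher and 3 lower in Tet1-labelled arrays, and 4 and 3 in HOXA9. Among all genes 53.9% were called higher and 23.2% lower in Tet1-labelled arrays, and 54% and 21.6% in HOXA9. After quantile normalization 2 markers were higher and 3 lower in each line. With equal array medians it was 1 and 4 in Tet1-labelled arrays, and 2 and 4 in HOXA9. The summed signal of the 8, on the deposited scale, ranged over 41694 to 47540 in shHMGA2 and 53099 to 54215 in control. It ranged over 64678 to 65450 in Tet1-labelled arrays and 63753 to 66910 in HOXA9. The shHMGA2 array with the highest TET1 also had the highest sum of kidney-line traits, the highest LIN28B and the lowest sum of basal markers. The part of these markers in the TET1 difference was not tested. Without that array the TET1 difference was 2.25 (limma, adjusted p = 4.8e-08).

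**Figure D2:**
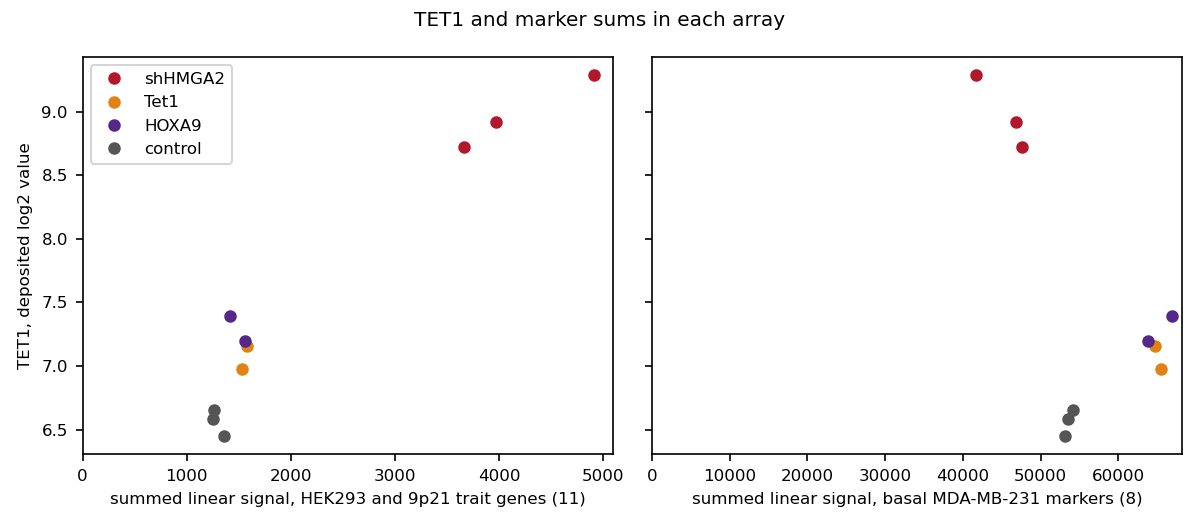
TET1 (deposited log2 value, y axis) in each array against the summed linear signal of 11 HEK293 and 9p21 trait genes (left) and of 8 basal MDA-MB-231 markers (right). The 3 shHMGA2 arrays have the highest trait sums and the lowest basal sums.

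The genes most like TET1 over the 10 arrays were TMLHE (Pearson r = 0.996), ZBTB33 (0.994) and HELB (0.994), out of 16106 candidates. TMLHE is an oxygenase of carnitine synthesis that, like the TET enzymes, uses iron and oxoglutarate. ZBTB33, also known as Kaiso, binds methylated DNA, and HELB is a DNA helicase. TMLHE averaged 9.45 in shHMGA2, 7.58 in Tet1-labelled arrays, 7.88 in HOXA9 and 7.14 in control. The likeness follows the 3 shHMGA2 arrays, which share their high values, and it is a description over 10 arrays.

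No other member of the machinery was called between shHMGA2 and control. Among all genes 13.6% were called higher and 12.6% lower, and of the 10 members 1 was called higher, TET1, and 0 lower. The other log2 changes lay between -0.11 for DNMT1 and 0.16 for TDG, with limma adjusted p between 0.18 and 0.73. DNMT1, the maintenance methyltransferase, had values of 11.87, 11.85 and 11.64 in shHMGA2 and 11.81, 11.98 and 11.92 in control. The groups overlapped, and the 95% interval of the change ran from -0.27 to 0.04. TDG had values of 8.34, 8.11 and 8.28 in shHMGA2 and 7.95, 8.04 and 8.24 in control, also overlapping, with an interval of -0.02 to 0.35. Without control replicate 3, TDG was called higher at 0.25 (limma, adjusted p = 0.048). TET2 and TET3, the other TET enzymes, differed by 0.06 (interval -0.11 to 0.23) and 0.11 (-0.06 to 0.29). UHRF2 was between 9.72 and 9.77 in shHMGA2 and between 9.63 and 9.69 in control, with no overlap, at a difference of 0.09 (limma, adjusted p = 0.25).

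Lists of partner genes are set here beside the 13.6% and 12.6% of all genes called higher and lower in shHMGA2; a share near these is no result about a list. Of 20 maintenance partners, 5 were higher and 1 lower, with a median change of 0.10 beside -0.03 for all genes. CDCA7, which guides the HELLS remodeller, was 0.81 higher and SETDB1, an H3K9 methyltransferase, 0.40 higher, while CDCA7L changed by -0.32 (limma, adjusted p = 2.3e-06, 0.0016 and 0.023). Of 13 measured TET partners and recruiters, 1 was higher and 2 lower, near the shares of all genes: WT1 by 0.25, and PPARG and RUNX1, with changes of -0.68 and -0.21 (limma, adjusted p = 0.03, 2.1e-05 and 0.02). The WT1 difference was 0.19 after quantile normalization (limma, adjusted p = 0.055). Of 9 other genes with a CXXC domain, which binds unmethylated CpG, 0 were called in either direction. Of 7 measured methyl-CpG readers, ZBTB33 was called, higher by 0.82, and 0 were lower (limma, adjusted p = 9.6e-06).

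Of 13 repair genes downstream of TDG, 3 were higher and 2 lower in shHMGA2. PARP1, a sensor of DNA breaks, was 0.65 higher and POLB, the gap-filling polymerase, 0.45 higher, while GADD45A and GADD45B, stress genes tied to demethylation, changed by -0.40 and -0.23 (limma, adjusted p = 0.00038, 0.004, 0.011 and 0.02). In the S-adenosylmethionine cycle, which supplies the methyl group, 1 of 10 was higher and 2 were lower, near the shares of all genes. MTR, methionine synthase, was 0.71 higher, and MAT2B and ADK each changed by -0.26 (limma, adjusted p = 4.1e-05, 0.016 and 0.0091). Among 12 genes of oxoglutarate metabolism and its competitors, the supply side of TET catalysis, 4 were higher and 1 lower. IDH2, which makes oxoglutarate, was 0.57 higher and OGDH, which uses it, changed by -0.39 (limma, adjusted p = 0.00037 and 0.006).

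The Tet1 and HOXA9 arrays lie in the same set, and no member was called between them. Among all genes 0.114% were called higher and 0.32% lower in Tet1-labelled arrays (21 and 59 genes, with 1687 at an unadjusted p under 0.05), and 0 of 10 members were called in either direction. The members' log2 differences ran from -0.23 for TET1 to 0.14 for TET2, with limma adjusted p between 0.62 and 0.96 and 0 members at an unadjusted p under 0.05. DNMT1 came nearest, at -0.16 (95% interval -0.36 to 0.03), with 11.11 and 11.10 in Tet1-labelled arrays and 11.24 and 11.30 in HOXA9.

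Against control, the maintenance gene DNMT1 was lower in both lines, and UHRF1 was lower by the probe set read here. DNMT1, with values given above, changed by -0.80 in Tet1-labelled arrays and -0.64 in HOXA9, with no overlap with control (limma, adjusted p = 2.8e-06 and 2e-05). The share of all genes without overlap was not counted. In these comparisons 14197 and 13938 of 18417 genes were called. A lack of overlap, here and below, is therefore not shown to be particular to the members. UHRF1 had values of 10.23 and 10.08 in Tet1-labelled arrays, 10.28 and 10.10 in HOXA9, and 10.72, 10.79 and 10.87 in control, with no overlap. Its changes were -0.64 and -0.61 (limma, adjusted p = 1.8e-05 and 3.2e-05). The other UHRF1 probe set went the other way, with changes of 0.44 and 0.39 in a fit of all probe sets (limma, adjusted p = 3e-04 and 0.00072). The direction of UHRF1 thus rests on which probe set is read. The other probe set averaged 7.12 and lists 3 transcript records, against 10.56 and 11 for the one read here. Its changes are on the deposited scale, where the median of all genes was higher by 0.25 and 0.24. The mean of both probe sets was not called, at -0.10 and -0.11 (0.2 and 0.17). With equal array medians DNMT1 changed by -1.27 and -1.09, and the UHRF1 probe set read here by -1.11 and -1.06.

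UHRF2, the paralogue of UHRF1 that also binds hemimethylated DNA, was higher in both lines. Its values were 10.48 and 10.47 in Tet1-labelled arrays, 10.40 and 10.45 in HOXA9, and 9.65, 9.69 and 9.63 in control. The differences were 0.82 and 0.77 (limma, adjusted p = 1.9e-07 and 3.4e-07) with no overlap. UHRF2 was also called higher after quantile normalization, at 0.91 and 0.82, and with equal array medians, at 0.35 and 0.31.

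The upstream sequences of these genes, from 250 bases before to 50 bases after each annotated start, come from RefSeq on GRCh38.p14. They are shown for DNMT1, for UHRF1 and its paralogue UHRF2, and for TET1, the member called in shHMGA2. The table held windows for 9 of the 10 genes, 20 in all. Each was searched on both strands for the words TTTCGCGC, TTTGGCGC, TTTCCCGC and TTTGCCGC, forms of the site read by E2F factors of the cell cycle. Of 35116 windows of this length 3.31% hold one, and 3 of the 20 do: 2 of UHRF1 and 1 of DNMT1. Capitals mark the word, which reads TTTCGCGC on the printed strand of UHRF1, from position -160 relative to the start, and on the opposite strand of DNMT1, from position -2. The windows are given 5′ to 3′ on the gene's strand. UHRF1 is at chr19:4909894-4910193 (plus strand), DNMT1 at chr19:10194904-10195203 (minus), UHRF2 at chr9:6412949-6413248 (plus) and TET1 at chr10:68560087-68560386 (plus).
UHRF1: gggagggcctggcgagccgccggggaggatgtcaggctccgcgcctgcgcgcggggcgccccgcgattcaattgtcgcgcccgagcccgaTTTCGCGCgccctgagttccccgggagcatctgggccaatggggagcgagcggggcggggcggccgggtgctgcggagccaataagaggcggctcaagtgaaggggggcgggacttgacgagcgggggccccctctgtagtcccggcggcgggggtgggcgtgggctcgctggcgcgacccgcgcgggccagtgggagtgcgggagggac
DNMT1: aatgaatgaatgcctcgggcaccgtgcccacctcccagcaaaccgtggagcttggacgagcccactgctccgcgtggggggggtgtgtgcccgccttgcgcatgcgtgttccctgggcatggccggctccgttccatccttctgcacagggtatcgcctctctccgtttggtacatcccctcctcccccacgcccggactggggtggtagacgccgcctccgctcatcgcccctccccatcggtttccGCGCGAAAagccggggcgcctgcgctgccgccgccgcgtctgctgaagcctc
UHRF2: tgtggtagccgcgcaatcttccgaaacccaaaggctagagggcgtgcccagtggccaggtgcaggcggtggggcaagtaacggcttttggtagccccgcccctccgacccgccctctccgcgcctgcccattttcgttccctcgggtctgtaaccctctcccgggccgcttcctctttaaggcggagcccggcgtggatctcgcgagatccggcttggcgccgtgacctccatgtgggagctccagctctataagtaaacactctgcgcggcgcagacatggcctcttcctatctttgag
TET1: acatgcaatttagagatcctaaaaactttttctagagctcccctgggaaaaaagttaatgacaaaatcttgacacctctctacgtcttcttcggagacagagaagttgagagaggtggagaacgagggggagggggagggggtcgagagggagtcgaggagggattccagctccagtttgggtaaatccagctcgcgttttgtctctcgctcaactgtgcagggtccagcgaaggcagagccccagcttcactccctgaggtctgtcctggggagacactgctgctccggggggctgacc
The printed UHRF1 window had 40 CpG and 76.0% G+C, that of DNMT1 30 and 68.3%, that of UHRF2 26 and 63.3%, and that of TET1 10 and 54.3%. The median over all windows was 14 CpG and 58.67% G+C, so TET1 lay below the median on both counts. A match is a description of the letters and shows neither binding nor its absence.

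The de novo enzymes moved apart. DNMT3A had values of 8.31 and 8.34 in Tet1-labelled arrays, 8.35 and 8.21 in HOXA9, and 7.62, 7.66 and 7.52 in control, and was higher by 0.73 and 0.68 (limma, adjusted p = 1.4e-06 and 2.7e-06). The DNMT3A difference was 0.39 and 0.34 after quantile normalization and 0.26 and 0.22 with equal array medians, and was called in each. DNMT3B had 7.92 and 7.79 in Tet1-labelled arrays, 7.94 and 7.99 in HOXA9, and 8.59, 8.66 and 9.04 in control, with changes of -0.91 and -0.80 (limma, adjusted p = 1.3e-05 and 4e-05), and of -1.37 and -1.25 with equal medians. Neither gene overlapped between either line and control, but the share of all genes without overlap was not counted. DNMT3L, the cofactor, had 6.89 and 6.88 in Tet1-labelled arrays, 6.95 and 6.91 in HOXA9, and 5.96, 5.90 and 6.05 in control. Its differences were 0.92 and 0.97 (limma, adjusted p = 1.7e-07 and 1.4e-07). DNMT3L lay below the 30th percentile in control and shHMGA2, so its level there is not known to be above background. After quantile normalization its difference was 0.36 and 0.42 (limma, adjusted p = 0.00043 and 0.00016).

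Among the erasers, TET3 was lower in both lines. Its values were 8.06 and 8.06 in Tet1-labelled arrays, 7.94 and 8.01 in HOXA9, and 8.69, 8.61 and 8.45 in control, with changes of -0.52 and -0.60 (limma, adjusted p = 0.00018 and 6.3e-05) and no overlap. With equal array medians the TET3 changes were -0.99 and -1.06. TET2 had 9.02 and 9.01 in Tet1-labelled arrays, 8.78 and 8.98 in HOXA9, and 9.14, 9.02 and 9.21 in control. Its change of -0.24 in HOXA9 was called (limma, adjusted p = 0.022), while that of -0.11 in Tet1-labelled arrays was not (0.27; interval -0.29 to 0.08). The call in HOXA9 was lost without control replicate 3 (-0.20; limma, adjusted p = 0.07) and without HOXA9 replicate 1 (-0.15; 0.22). A second TET2 probe set had 9.25 and 9.38 in Tet1-labelled arrays, 9.26 and 9.33 in HOXA9, and 8.45, 8.35 and 8.51 in control. It was higher by 0.87 and 0.85 in a fit of all probe sets (limma, adjusted p = 7.9e-06 and 1e-05), so the 2 TET2 probe sets disagree. TDG changed by 0.02 in Tet1-labelled arrays and -0.01 in HOXA9 as deposited (limma, adjusted p = 0.88 and 0.91), and by -0.31 and -0.34 after quantile normalization (0.0088 and 0.0047).

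**Figure D3:**
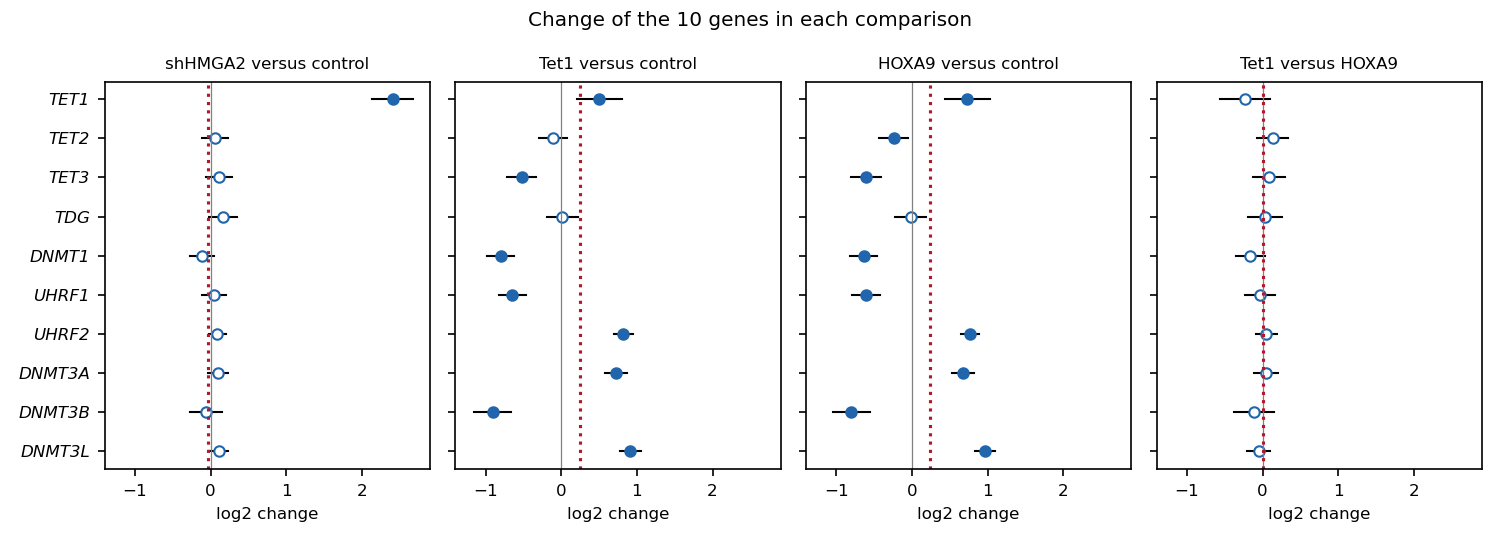
Log2 change of each gene in 4 comparisons (points; filled where called, with 95% intervals as bars), with genes down the y axis. TET1 leads in shHMGA2 versus control, most members are called in Tet1 and HOXA9 versus control, and none is called in Tet1 versus HOXA9; the dotted line is the median change of all genes.

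In all, 4 members were called higher and 4 lower in Tet1-labelled arrays than in control, where 53.9% of all genes were called higher and 23.2% lower. In HOXA9, 4 were higher and 5 lower, where 54% of all genes were called higher and 21.6% lower. The median of all genes was itself higher by 0.25 and 0.24, and these 2 comparisons share the control arrays. Relative to that shift DNMT3A, DNMT3L and UHRF2 were higher and TET3, DNMT1, DNMT3B and UHRF1 lower. After quantile normalization, with 32.6% of genes higher and 33.3% lower in Tet1-labelled arrays and 29.7% and 34% in HOXA9, these 7 genes kept their direction and their call in both lines, UHRF1 by the probe set read here. With equal medians they did so too, with the sizes given above. Set against shHMGA2, these 7 genes differed in the same direction in both lines. TET1 did not: both lines were called above control and below shHMGA2. In all, shHMGA2 had 5 members higher and 3 lower than Tet1 (24.9% and 55.2% of all genes). It had 6 higher and 3 lower than HOXA9 (23.5% and 55.3%). TET1 is among the higher members in both counts.

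**Figure D4:**
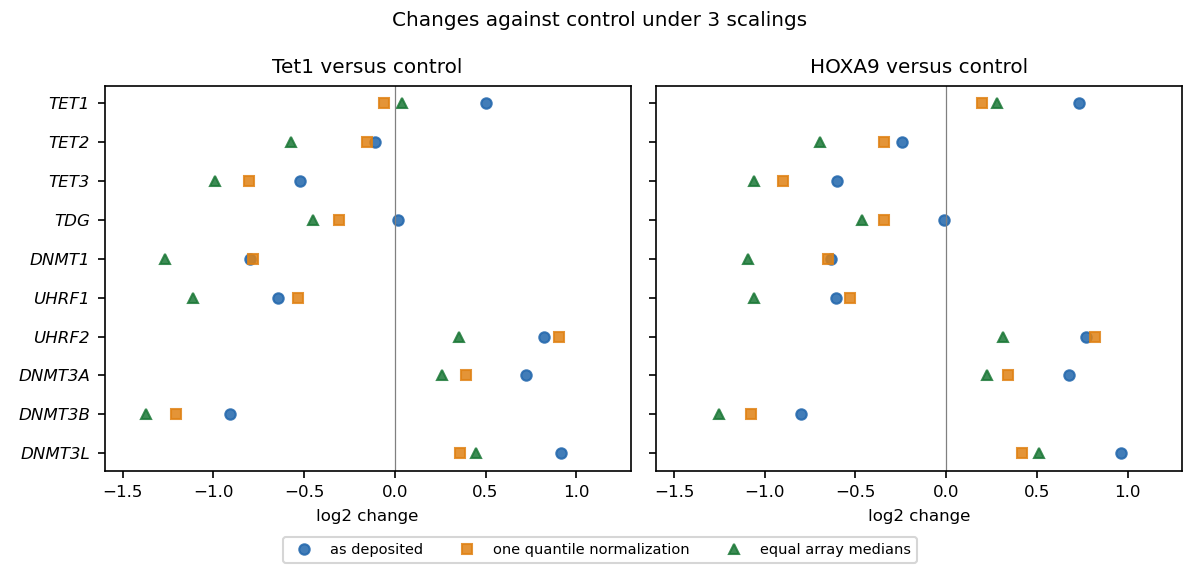
Log2 change against control of each gene (y axis) as deposited, after 1 quantile normalization and with equal array medians, for Tet1 (left) and HOXA9 (right). In Tet1 the points of TET1 and TDG lie on both sides of 0, and those of the other 8 genes on 1 side.

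Differences between paralogues within an array do not move with a shift of the whole array. With the UHRF1 probe set used here, UHRF2 minus UHRF1 was 0.26 and 0.39 in Tet1-labelled arrays, 0.12 and 0.35 in HOXA9, -1.01 to -1.15 in shHMGA2 and -1.07 to -1.24 in control. The change against control was 1.46 in Tet1-labelled arrays, 1.38 in HOXA9 and 0.04 in shHMGA2. DNMT3A minus DNMT3B was 0.39 and 0.55 in Tet1-labelled arrays, 0.41 and 0.23 in HOXA9, -0.99 to -1.04 in shHMGA2 and -0.97 to -1.52 in control, a change of 1.63, 1.48 and 0.16. Such a difference shows that the probe sets read here changed unequally. It does not cancel effects particular to a probe set. In Tet1-labelled arrays against control, the 2 UHRF1 probe sets changed by -0.64 and 0.44. As a difference of separate probe sets it says nothing of which transcript is more abundant.

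**Figure D5:**
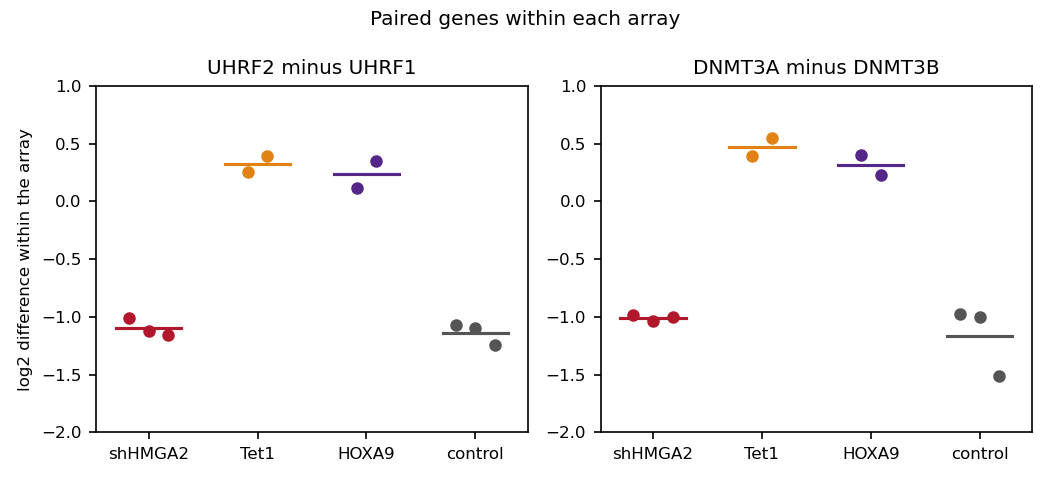
Log2 difference within each array (points; the bar is the group mean) for UHRF2 minus UHRF1 (left) and DNMT3A minus DNMT3B (right), by group. The Tet1 and HOXA9 arrays lie above 0 and the shHMGA2 and control arrays below it.

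Genes of DNA replication were lower in the arrays where DNMT1 and 1 of the 2 UHRF1 probe sets were lower. Of 20 S-phase genes 0 were higher and 18 lower in Tet1-labelled arrays than in control, and 0 and 16 in HOXA9. Among all genes 23.2% and 21.6% were called lower. The medians of the list were -0.47 and -0.41, beside 0.25 and 0.24 for all genes. CLSPN, a checkpoint protein, changed by -1.58 in Tet1-labelled arrays and -1.35 in HOXA9, and CDC6, which licenses origins, by -1.37 and -1.32 (limma, adjusted p = 1.7e-07, 5.7e-07, 8.6e-07 and 1.3e-06). Their summed signal ranged over 21688 to 22245 in Tet1-labelled arrays, 23255 to 24866 in HOXA9, 36697 to 38184 in shHMGA2 and 34589 to 35555 in control. After quantile normalization 17 and 15 of the 20 were called lower, beside 33.3% and 34% of all genes. In shHMGA2, where DNMT1 and UHRF1 were not called, 8 were higher and 1 lower, beside 13.6% and 12.6% of all genes. The part of S-phase genes in these differences was not tested. DNMT1's nearest genes over the arrays were UBE3C (r = 0.995), UTP20 (0.994) and TYMS (0.993), the last of which makes thymidylate for DNA synthesis and is in the S-phase list. TYMS averaged 11.16 in Tet1-labelled arrays, 11.34 in HOXA9, 11.84 in shHMGA2 and 11.91 in control.

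Partners of maintenance methylation were mostly lower in both lines, beside 23.2% and 21.6% of all genes called lower. Of 20, 4 were higher and 12 lower in Tet1-labelled arrays, and 4 and 12 in HOXA9, with medians of -0.31 and -0.34. CDCA7 changed by -1.18 and -1.06 (limma, adjusted p = 4.5e-08 and 1.1e-07), opposite to its sign in shHMGA2. CBX5, the heterochromatin protein HP1 alpha, changed by -1.09 in Tet1-labelled arrays, and PCLAF, a PCNA partner, by -0.74 in HOXA9 (limma, adjusted p = 4.9e-07 and 3.6e-06). LIG1, the ligase of replication, was 0.59 and 0.60 higher, DPPA3, which keeps UHRF1 from chromatin, 0.81 higher in Tet1-labelled arrays, and ZFP57, an imprint guardian, 0.66 higher in HOXA9 (limma, adjusted p = 2.4e-05, 2.4e-05, 4.3e-05 and 2.1e-06). After quantile normalization DPPA3 was 0.32 higher and ZFP57 was no longer called, at 0.09 (limma, adjusted p = 0.02 and 0.19). Both lay below the 30th percentile in control, so their level there is not known to be above background.

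TET partners were called in both directions. Over all genes 53.9% were called higher and 23.2% lower in Tet1-labelled arrays, and 54% and 21.6% in HOXA9. Of 13 TET partners, 5 were higher and 5 lower in Tet1-labelled arrays, and 4 and 6 in HOXA9. After quantile normalization it was 2 and 7 in both, beside 32.6% and 33.3% of all genes in Tet1-labelled arrays. In HOXA9 those shares were 29.7% and 34%. HCFC1, a cofactor of the OGT enzyme that binds TET proteins, changed by -1.42 and -1.41, and PPARG by -0.83 and -0.53 (limma, adjusted p = 6.9e-08, 8.2e-08, 1e-06 and 4.2e-05). SPI1, a blood-lineage factor that recruits TET2, was 0.91 and 0.75 higher (limma, adjusted p = 1.1e-06 and 5.4e-06), and 0.60 and 0.41 after quantile normalization. CXXC4, a partner of TET2, was 0.74 and 0.51 higher as deposited (limma, adjusted p = 5.8e-06 and 0.00013), and 0.20 and -0.01 after quantile normalization (0.055 and 0.94), from a control level below the 30th percentile. Of 9 CXXC genes 2 were higher and 5 lower in Tet1-labelled arrays, and 2 and 6 in HOXA9. KMT2A, an H3K4 methyltransferase, changed by -0.75 and -0.71, and KDM2B, which brings Polycomb to CpG islands, by -0.65 and -0.61 (limma, adjusted p = 2.3e-06, 4e-06, 5.8e-05 and 0.00011). FBXL19 was 0.63 and 0.49 higher (limma, adjusted p = 1.2e-05 and 1e-04) and, after quantile normalization, 0.33 and 0.16 (0.0016 and 0.078).

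Readers and repair genes were called in both directions. The shares of all genes were 53.9% higher and 23.2% lower in Tet1-labelled arrays, and 54% and 21.6% in HOXA9. A share near these is no result about a list. Of 7 methyl-CpG readers 3 were higher and 2 lower in each line. MBD4, a reader with glycosylase activity, changed by -0.74 and -0.64, and MBD1 by -0.38 and -0.35 (limma, adjusted p = 4.9e-06, 1.8e-05, 0.00021 and 0.00036). ZBTB38 was 0.54 and 0.29 higher and ZBTB4 0.35 and 0.42 higher (limma, adjusted p = 0.00014, 0.012, 0.0044 and 0.0014). Of 13 repair genes 3 were higher and 7 lower in Tet1-labelled arrays, and 3 and 5 in HOXA9. GADD45G was 1.35 and 1.02 higher as deposited, 0.85 and 0.48 after quantile normalization, and NEIL3, a glycosylase, changed by -0.75 and -0.74 (limma, adjusted p = 9.3e-09, 7.4e-08, 2.3e-06 and 2.8e-06). LIG3, a repair ligase, changed by -0.78 in Tet1-labelled arrays and its partner XRCC1 by -0.74 in HOXA9 (limma, adjusted p = 5.8e-07 and 3.9e-06). NEIL1 was 0.54 and 0.40 higher (limma, adjusted p = 7.8e-05 and 0.00092), and after quantile normalization -0.01 and -0.15 (0.93 and 0.097).

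Genes of substrate supply were called in both directions. As deposited, 53.9% of all genes were called higher and 23.2% lower in Tet1-labelled arrays, and 54% and 21.6% in HOXA9. In the S-adenosylmethionine cycle 3 of 10 were higher and 4 lower in Tet1-labelled arrays, and 3 and 3 in HOXA9. MTRR, which reactivates methionine synthase, changed by -0.80 and -0.87, and AHCYL1 by -0.44 and -0.49 (limma, adjusted p = 1.4e-06, 8.5e-07, 8.5e-05 and 4.2e-05). GNMT was 0.58 and 0.56 higher (limma, adjusted p = 4e-06 and 6e-06), and 0.01 and -0.01 after quantile normalization. BHMT was 0.53 higher in Tet1-labelled arrays (limma, adjusted p = 1.8e-05) and -0.05 after quantile normalization, and ADK 0.37 higher in HOXA9 (0.00042). Of 12 oxoglutarate genes 4 were higher and 4 lower in Tet1-labelled arrays, and 7 and 5 in HOXA9. SLC23A2, a vitamin C transporter, changed by -1.09 and -1.01, and SDHD, a subunit of succinate dehydrogenase, was 0.64 and 0.59 higher (limma, adjusted p = 4.1e-08, 7.9e-08, 1.1e-06 and 2.4e-06). IDH3A changed by -0.84 in Tet1-labelled arrays and SDHA by -0.55 in HOXA9 (limma, adjusted p = 4.2e-07 and 5.9e-06). SLC23A1, the other vitamin C transporter, was 0.58 and 0.55 higher (limma, adjusted p = 8.4e-06 and 1.5e-05), and 0.07 and 0.04 after quantile normalization. With equal array medians 4037 of all 18417 genes were higher and 9472 lower in Tet1-labelled arrays, and 3730 and 9406 in HOXA9. The list counts tilted down as those of all genes did. In each line 1 maintenance partner was higher and 16 lower, 0 readers and 5, and 1 repair gene and 10. The S-adenosylmethionine cycle then had 0 higher and 7 lower in each line, TET partners 2 and 9 in Tet1-labelled arrays and 1 and 9 in HOXA9, CXXC genes 1 and 7, and 0 and 7, and oxoglutarate genes 1 and 8, and 0 and 6.

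Apart from DNMT1, the other members had these nearest genes over the arrays. For UHRF2 they were TMEM258 (r = 0.9995), TPI1 and TAGLN3 (both 0.998), for DNMT3A SLA2 (0.998), CPLX3 and OLIG1 (both 0.997), and for DNMT3L ARLN (0.998), LRRC3DN (0.998) and GVINP1 (0.996). For UHRF1 they were FAXC (0.987), ANKRD39 (0.986) and MRM1 (0.983), for DNMT3B SLC25A38 (0.989), TTI2 (0.987) and GPRC5A (0.986), and for TET3 MRPL16 (0.993), EP400 (0.987) and DHX34 (0.985). These members separate the 2 sets of arrays, and so do their nearest genes. TET2 had MSL3 (0.951), EIF1 (0.949) and PRR14 (0.933), and TDG, which was called in no comparison as deposited, had the lowest values, with SLC35C1 (0.880), CDK20 (0.876) and PGM5 (0.866).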

How the data were processed

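Total RNA of 4 groups of cells was labelled by the Affymetrix whole-transcript protocol, per the labels' protocols. The authors deposited log2 values of 33297 probe sets, for which the submitters' processing notes name RMA and R 2.11. RMA corrects background, applies quantile normalization and combines probes into probe sets. Of these, 19460 have 1 gene symbol in the platform annotation, 1754 several and 12083 are not listed there; the annotation's genome build was not given in the sources used here. Probe sets with 1 symbol gave 18417 genes, the one with the highest mean where a gene had several. The 10 arrays were fitted in limma 3.58.1 under R 4.3.3 with lmFit and eBayes and no covariate (degrees of freedom: 6 residual, 5.65 prior). Tests were two-sided, and the call was an adjusted p (Benjamini-Hochberg, all genes of a comparison) under 0.05. The number of arrays limits the precision, and p-values measure the spread between these arrays. No filter on dim genes was applied.

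The members, the 14 gene lists and the tests were chosen with earlier results of these data known. All members were named, with up to 2 called genes of each list in each direction and comparison, and the 3 genes with the highest correlation to each member among genes with a group mean above the 30th percentile. Alternatives were quantile normalization over all arrays, equal array medians, all 12 columns, compared groups alone, the replicate number as a block, the mean of a gene's probe sets, a filter on dim genes, eBayes with trend and robust, and leaving out each array; a fit of all probe sets was added after seeing the data. The fit was tested on simulated data. Promoter windows were RefSeq's (GRCh38.p14), and protein sequences were not used here.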

Additional observations from a re-analysis of the deposited data

How the results depend on the processing

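TET1 in shHMGA2 versus control kept its direction and call under every alternative run, between 2.20 and 2.54. Results that reversed were few. In Tet1 versus control TET1 was -0.057 and TDG -0.31 after quantile normalization, and TDG was -0.45 with equal medians. With the mean of both TET2 probe sets, TET2 was 0.38 in Tet1 versus control, 0.31 in HOXA9 versus control, -0.33 in shHMGA2 versus Tet1 and -0.26 in shHMGA2 versus HOXA9; the probe sets disagree, and the cause was not tested. In the same setting UHRF1 lost its calls, at -0.10 and -0.11, and with TET2 now higher 3 members were lower in HOXA9 versus control. Counts over all genes moved with the scale. After quantile normalization 6001 genes were higher in Tet1 versus control (9927 as deposited), 5478 higher and 6267 lower in HOXA9 versus control (9952 and 3986), 55 and 90 in Tet1 versus HOXA9 (21 and 59), and 6385 lower in shHMGA2 versus HOXA9 (10188). With equal medians they were 4037 and 9472 in Tet1 versus control, 3730 and 9406 in HOXA9 versus control, 8798 and 5020 in shHMGA2 versus Tet1, and 8697 and 4640 in shHMGA2 versus HOXA9. Tet1 versus HOXA9 gave 454 and 658 with all 12 columns, which count averages as replicates, and 44 and 99 with the compared groups alone. Leaving out 1 array gave 1 to 2 members higher in shHMGA2 versus control, and 4 to 17 genes higher and 7 to 55 lower in Tet1 versus HOXA9. The replicate numbers were not used as pairs in the main fit. Deviations of same-numbered shHMGA2 and control arrays correlated at 0.16, 0.14 and 0.00. Replicates 1 and 2 of shHMGA2 correlated best with their own number, and replicate 3 with control replicate 2, at 0.03. Same-numbered Tet1 and HOXA9 arrays correlated at 0.17 and the others at -0.17, equal in size because each group held 2 arrays. With the number as a block 1 member call was lost, TET2 in HOXA9 versus control at -0.19 (limma, adjusted p = 0.052), TET1 in shHMGA2 versus control stayed at 2.41, and 2530 genes were higher and 2355 lower there (2508 and 2322 without it).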

Other observations

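Genes that DNA methylation often controls were read beside the machinery. Of 14 measured imprinted genes, 1 was higher and 3 lower in shHMGA2 than in control, beside 13.6% and 12.6% of all genes. PLAGL1, a zinc finger gene that is imprinted in many tissues, was 2.16 higher on the log2 scale, while SGCE and PEG10, neighbours in an imprinted cluster, changed by -0.56 and -0.52 (limma, adjusted p = 7.6e-08, 0.0016 and 0.0012). In Tet1 and in HOXA9, 10 imprinted genes were higher and 2 lower as deposited, 5 higher and 5 lower after quantile normalization, and 3 and 4 with equal medians. As deposited, 53.9% of all genes were higher and 23.2% lower in Tet1, and 54% and 21.6% in HOXA9. After quantile normalization the shares were 32.6% and 33.3%, and 29.7% and 34%. SGCE was 0.75 and 0.74 higher, opposite to its sign in shHMGA2 (limma, adjusted p = 6.9e-05 and 8e-05). GRB10, a growth factor receptor adaptor, was 1.40 and 1.10 higher, and PEG10 changed by -0.46 and -0.62 (limma, adjusted p = 1.6e-08, 9.1e-08, 0.0011 and 0.00011).

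Of 22 germline genes that are usually silenced by methylation, 0 were higher and 3 lower in shHMGA2 than in control, among them MAEL, a gene of the piRNA pathway, with a change of -0.31 (limma, adjusted p = 0.005) between levels below the 30th percentile in both groups, not known to be above background. Among all genes 12.6% were called lower there, about the share of this list. In Tet1 14 were higher and 0 lower, and in HOXA9 16 and 0, beside 53.9% and 54% of all genes called higher, but after quantile normalization it was 7 and 8, and 7 and 7, and with equal medians 5 and 13, and 4 and 13. MAGEC2, a cancer-testis antigen, was 1.77 higher in Tet1 and 2.47 higher in HOXA9, and 1.39 and 2.19 after quantile normalization (limma, adjusted p = 4.8e-08, 5.3e-09, 5.3e-07 and 2.4e-08). It was also called between the 2 lines, with a difference of -0.69 in Tet1 versus HOXA9 (limma, adjusted p = 0.019). Methylation itself was not measured on these arrays.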
